A study of Drosophila melanogaster with 12 samples.

Results

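Transcripts in the heads of Drosophila melanogaster were compared between the night of a light/dark day and the subjective night of the next day in constant darkness. Both nights are dark, and they differ in whether light had fallen on the flies in the 12 h before. The comparison used 6 of the 12 samples of the study, chosen by the hour and the regime in their titles. They were the samples of hours 14, 18 and 22 under light/dark cycles (LD night, 3 samples) and of the same hours in constant darkness (DD night, 3 samples). The 6 samples of hours 2, 6 and 10 (LD day and DD day, 3 each) entered the fit and served for the comparison with the day.

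All flies were adults of a y w strain, mutant for yellow, a gene of body colour, and white, a gene of eye pigmentation. They had lived for 3 days in 12 h of light and 12 h of darkness before a further such day was sampled, followed by a day in darkness, every 4 h. Hours are counted from lights-on, or from the time when the lights would have come on. Each sample was RNA from a pool of about 100 to 200 frozen heads separated on sieves, hybridised to 1 Affymetrix array. The sexes and ages of the flies are not given in the sources used here. Nothing says whether the pools came from separate cultures, so p-values measure only the spread between these samples, part of which may be technical. The samples of a night are of different hours, so in fits without the hour as a block that spread also holds any change with the hour. The DD night always followed the LD night by a day, so the regime and the order of the days cannot be told apart.

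The circadian clock of the fly runs on a feedback loop in which Clk and cyc switch on per, tim and vri, whose products in turn hold Clk activity down. Light resets the loop through cry, which leads to the breakdown of the Tim protein, and in darkness the loop runs on by itself. Besides the clock cells, the head holds photoreceptors, brain neurons, glia, fat body, muscle and cuticle, and a transcript measured in whole heads can come from any of them. In such bulk samples, fewer cells of a type and less RNA per cell cannot be told apart.

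Levels were log2 values for 13966 probe sets, with array medians between 5.37 and 5.40 on the night arrays. The number of arrays limits the precision. Over probe sets, r was between 0.987 and 0.995 for pairs of LD night arrays, between 0.984 and 0.992 for pairs of DD night arrays, and between 0.973 and 0.987 for an LD night with a DD night array. Probe sets are not independent replicates, and these are descriptions. The first principal component of the 6 night arrays held 46.5% of their variance, with the LD night arrays at −0.61, −0.30 and −0.25 and the DD night arrays at 0.25, 0.40 and 0.51. The photoreceptor arrestin Arr2 lay between 12.0 and 12.4 on all night arrays, and the synaptic gene nSyb between 6.19 and 6.90. The pan-neuronal gene elav was dim, between 4.16 and 5.69, as was lush, a gene of olfactory support cells, between 3.54 and 4.26.

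The arrays of the DD night also differed from those of the LD night in the 5′ signal of the control transcripts, which drops when the labelled RNA is less complete at that end, and 1 array of the LD day was low as well. Probe sets at the 5′ and 3′ ends of the control transcripts actin, GAPDH and eIF-4a gave a 5′ minus 3′ signal, averaged over the 3 transcripts. On the log2 scale it was −1.52, −1.74 and −1.63 at LD hours 14, 18 and 22, and −1.89, −2.51 and −2.45 at the same hours of DD. The groups did not overlap, with means of −1.63 ± 0.11 and −2.29 ± 0.34 (SD, n = 3 each) and a difference of −0.66. A two-sided exact permutation test over the 20 splits gave p = 0.1, the smallest it can give. Actin alone differed by −0.58 and GAPDH alone by −0.72 (exact p = 0.1 for both), whereas eIF-4a differed by −0.66 with overlapping groups (exact p = 0.4) and was highest of all arrays at DD hour 14 (−1.18). Among the 6 day arrays, LD hour 2 had the lowest mean signal (−2.02), and the other 5 lay between −1.76 and −1.51. It was lowest of them in actin (−2.05) and GAPDH (−2.71), whereas its eIF-4a signal (−1.29) was the highest of the 6. The low signal of that array is thus one of the mean and not of all 3 transcripts. Whether the 5′ signal has a part in the gene differences given here was not tested, and its values stand beside them below.

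**Figure D1:**
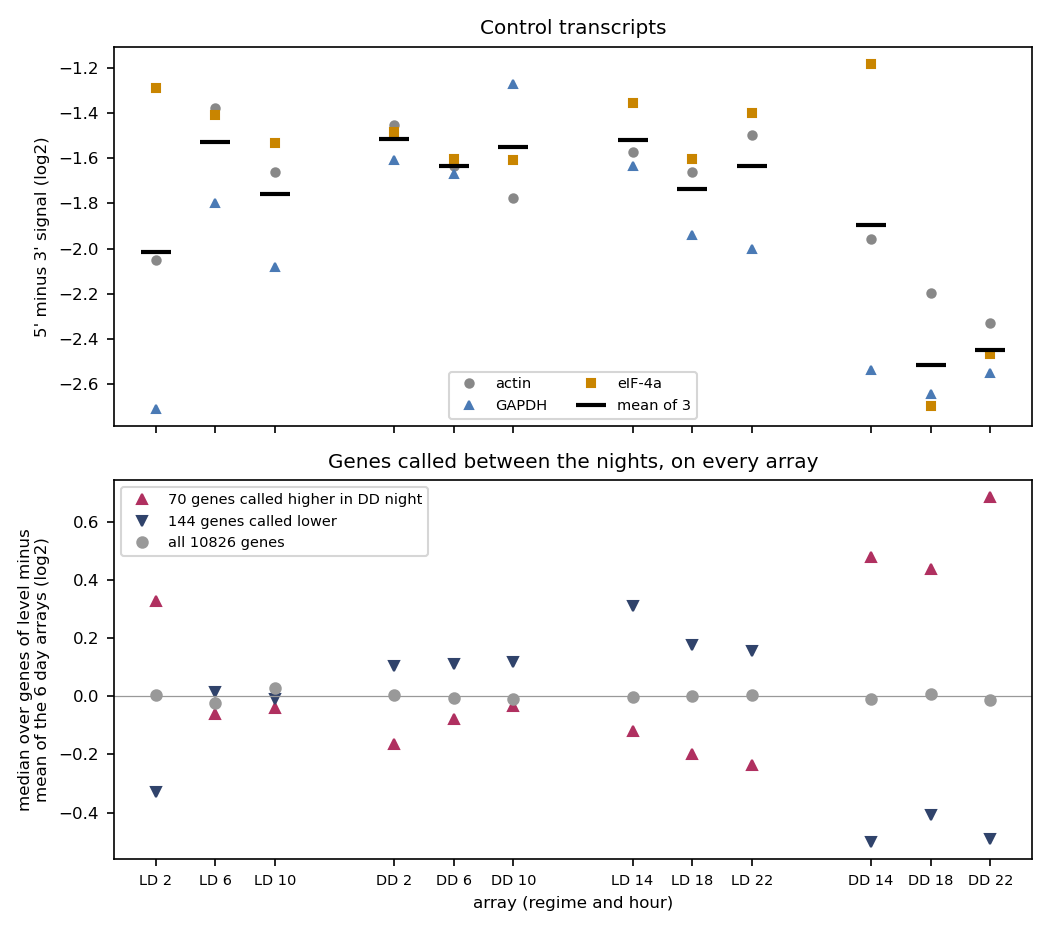
Top, signal of the 5′ minus the 3′ probe set (log2) of 3 control transcripts on each of the 12 arrays, with their mean as a bar. Bottom, the median over genes of the level minus the gene's mean over the 6 day arrays (log2), for the genes called higher or lower in the DD night and for all genes. The DD night arrays have mean signals from −2.51 to −1.89, and LD hour 2, the lowest of the day arrays at −2.02, has medians of 0.33 for the genes called higher and −0.33 for those called lower.

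Between the nights, 291 of 13966 probe sets (2.08%) differed at an adjusted p under 0.05 in limma, with 113 higher (0.809%) and 178 lower (1.27%) in the DD night. An unadjusted p under 0.05 was reached by 2480 probe sets (17.8%). Taking for each gene the brightest of its probe sets, 214 of 10826 genes (1.98%) were called, 70 of them higher (0.647%) and 144 lower (1.33%). The 70 genes were higher by between 0.35 and 1.54 log2, with a median of 0.72. The 144 lower genes had differences between −3.15 and −0.29, with a median of −0.69. Over all genes the median was 0.00. All 3 DD night arrays lay above all 3 LD night arrays in 1088 genes (10% of those measured) and below them in 1418 (13.1%), 23.1% together, and a gene with non-overlapping groups has a fixed direction by construction. All 70 higher and all 144 lower genes had non-overlapping groups, so where this is given for a called gene below it adds nothing to the call.

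These counts depended on single arrays. Without LD hour 14, LD hour 18 or DD hour 22, 0 probe sets passed in limma (smallest adjusted p = 0.067, 0.0605 and 0.102), although 1789, 2050 and 1878 had an unadjusted p under 0.05. Without LD hour 22 there were 5 higher and 16 lower calls, without DD hour 18 there were 45 and 40, and without DD hour 14 there were 163 and 345. The median size of the 291 differences, 0.69 log2 in the main fit, lay between 0.64 and 0.71 in these fits. The 291 were called with all 6 night arrays, so these sizes are descriptions. With that control signal as a covariate in the fit 0 passed (smallest adjusted p = 0.9, 722 with an unadjusted p under 0.05), and the median size of the 291 differences went from 0.69 to 0.49 log2. The signal did not overlap between the nights, so this fit can hardly separate it from the regime. Its median standard error was 0.20, against 0.13 with median centring, and the cause of the lost calls was not tested. Without the day array LD hour 2, which changes only the estimate of the spread here, 249 were higher and 441 lower, and all 291 were among them. Same-hour arrays of the nights deviated together from their group means, and with the hour as a block 42 probe sets were higher and 108 lower in all 12 arrays, and 206 and 390 in the 6 night arrays.

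**Figure D2:**
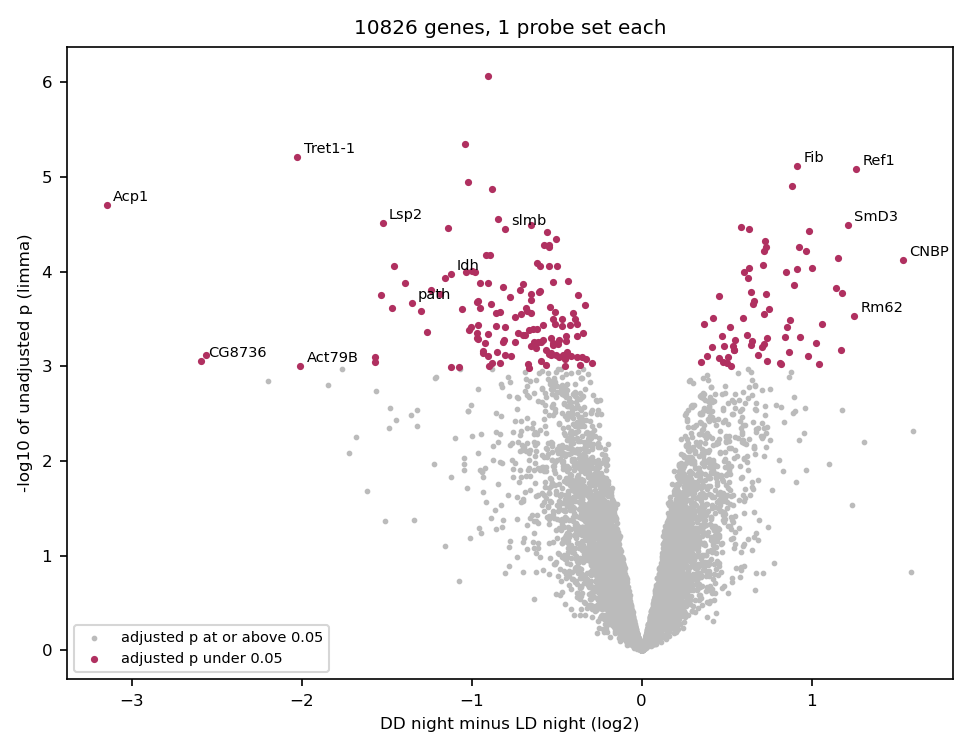
Difference between DD night and LD night (log2, horizontal axis) against −log10 of the unadjusted limma p (vertical axis) for 10826 genes, 3 arrays in each group. Genes with an adjusted p under 0.05 are coloured. The largest called differences are −3.15 for Acp1 and 1.54 for CNBP.

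The genes called between the nights also moved on an array that took no part in the difference. On the LD day array of hour 2, 66 of the 70 higher genes lay above their mean over the 6 day arrays, by a median of 0.33 log2, and 131 of the 144 lower genes lay below theirs, with a median of −0.33. On that array all genes had a median of 0.00, with 5494 above and 5328 below. On the other 5 day arrays the higher genes had medians between −0.16 and −0.03 and the lower genes between −0.01 and 0.12. The mean over the 6 day arrays includes LD hour 2 itself. A shift on that array therefore moves the other 5 the opposite way by construction, and their medians add nothing to it. That array also had the low 5′ signal described above, and whether the signal has a part in this was not tested.

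Transcripts for proteins that bind, splice or modify RNA gave more calls than any other gene list examined among the genes higher in the DD night. The members and all lists were chosen with earlier results of these data known, so this ranking and the counts by list are descriptions. CNBP, a zinc finger protein that binds nucleic acids, had levels of 9.05, 8.96 and 9.00 at LD hours 14, 18 and 22 and of 10.70, 10.40 and 10.51 at the same hours of DD. All DD night arrays lay above all LD night arrays, and the difference of 1.54 ± 0.26 log2 (SE) was 2.90-fold (adjusted p = 0.0247). Its other probe sets differed by 0.61 and 0.14 and were not called. Ref1, an adaptor for export of mRNA from the nucleus, had 7.21, 7.09 and 6.74 in LD and 8.14, 8.24 and 8.46 in DD. Its difference was 1.26 ± 0.17 (2.40-fold, adjusted p = 0.0188), again without overlap. The RNA helicase gene Rm62 had 7.99, 7.63 and 7.84 in LD and 8.89, 8.98 and 9.34 in DD, a difference of 1.25 ± 0.24 (adjusted p = 0.0335).

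Of 31 measured genes on the list for RNA binding and splicing, 8 rose and 0 fell, against 0.647% and 1.33% of all genes, and the list's median was 0.52 log2. The 8 were CNBP, Ref1, Rm62, the SR proteins B52 (1.14 ± 0.21) and SF2 (0.89 ± 0.16), the splice-site factors U2af38 (0.88 ± 0.17) and snRNP-U1-70K (0.66 ± 0.12), and the RNA-binding gene shep (0.63 ± 0.11). Dimmer probe sets of shep differed by 0.12 and 0.29 and were not called. Another 8 members had an unadjusted p under 0.05 and a higher level, and 2 had a lower one. B52 had 7.77, 7.60 and 7.67 in LD and 8.69, 8.62 and 9.15 in DD, so its groups did not overlap, and the DD array of hour 22 was the highest. In the day the list's median difference was −0.18. With the hour as a block 3 of the 31 were called higher in 12 arrays, and 10 in the 6 night arrays, where 1 was lower. Of all 10826 genes 24 were called higher and 82 lower in 12 arrays, and 132 and 317 in the 6 night arrays.

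Related groups, put together after the values were seen, held further members. Their counts and signs are therefore descriptions and no test of these families. Of all genes 0.647% were called higher, and 5453 of 10826 had a difference above 0. SmD3, a core protein of the spliceosomal snRNPs, had 5.89, 6.24 and 6.05 in LD and 7.30, 6.96 and 7.56 in DD, a difference of 1.21 ± 0.18 (2.32-fold, adjusted p = 0.0241). All 10 measured Sm and U snRNP genes were above 0, and 3 rose, SmD3, SmD1 (0.72 ± 0.11) and snRNP-U1-70K. Fib, the methyltransferase fibrillarin of the nucleolus, had 7.17, 7.01 and 7.08 in LD and 7.83, 8.02 and 8.16 in DD (0.92 ± 0.12, adjusted p = 0.0188). With it the nucleolar genes Nopp140 (0.98 ± 0.15) and Nop56 (0.46 ± 0.08) rose, 3 of 9 measured box C/D and H/ACA proteins. Of 8 measured factors that write or read N6-methyladenosine in RNA, fl(2)d (0.73 ± 0.13) and Ythdc1 (0.72 ± 0.15) rose, and all 8 had positive differences. The SR-type gene Rsf1 (0.92 ± 0.15) and the branch-point factor SF1 (0.72 ± 0.12) rose too. 

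Of the 17 RNA-processing genes named as called, 0 were called without LD hour 14 (adjusted p from 0.0675 to 0.0997), LD hour 18 (0.0731 to 0.122) or DD hour 22 (0.107 to 0.156), 2 without LD hour 22, 11 without DD hour 18 and 17 without DD hour 14. With the 5′ signal as a covariate 0 were called (adjusted p from 0.9 to 0.977) while the list's median was 0.48, and with the hour as a block in 12 arrays 8 of the 17 were called.

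The other genes with the largest increases had varied roles. Ork1, a potassium leak channel, had 5.16, 5.13 and 5.05 in LD and 6.56, 5.93 and 6.38 in DD (1.18 ± 0.22, adjusted p = 0.0286). CG13551, whose synonym ATPIF1 names an inhibitor of the mitochondrial ATPase, differed by 1.17 ± 0.25, and ATPsynB, a subunit of the ATP synthase, by 0.98 ± 0.22. Sec61beta, part of the channel through which proteins enter the endoplasmic reticulum, differed by 1.16 ± 0.19. RpLP2, an acidic protein of the ribosomal stalk, had 10.84, 11.48 and 11.56 in LD and 12.19, 12.17 and 12.65 in DD (1.04 ± 0.24, adjusted p = 0.0471). It was the one call among 37 measured cytosolic ribosomal protein genes, whose median was 0.07, a share near the 1.98% called among all genes. The transcriptional repressor gene hairy (hry) had nearly equal levels within each night, 7.83, 7.71 and 7.73 in LD and 8.79, 8.79 and 8.78 in DD, a difference of 1.03 ± 0.22 (adjusted p = 0.0399). The gene mira, an adaptor of asymmetric cell division, differed by 0.97 ± 0.16 by its brightest probe set and by 0.16 by the other, and CG15201 by 1.06 ± 0.21. These 8 genes and slgA, described below with proline breakdown, all lost their calls without LD hour 14, LD hour 18, LD hour 22 or DD hour 22 (adjusted p from 0.0731 to 0.181). Of the 9, 6 were called without DD hour 14, 2 (Ork1 and Sec61beta) without DD hour 18, and 3 (RpLP2, slgA and mira) with the hour as a block in 12 arrays.

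**Figure D3:**
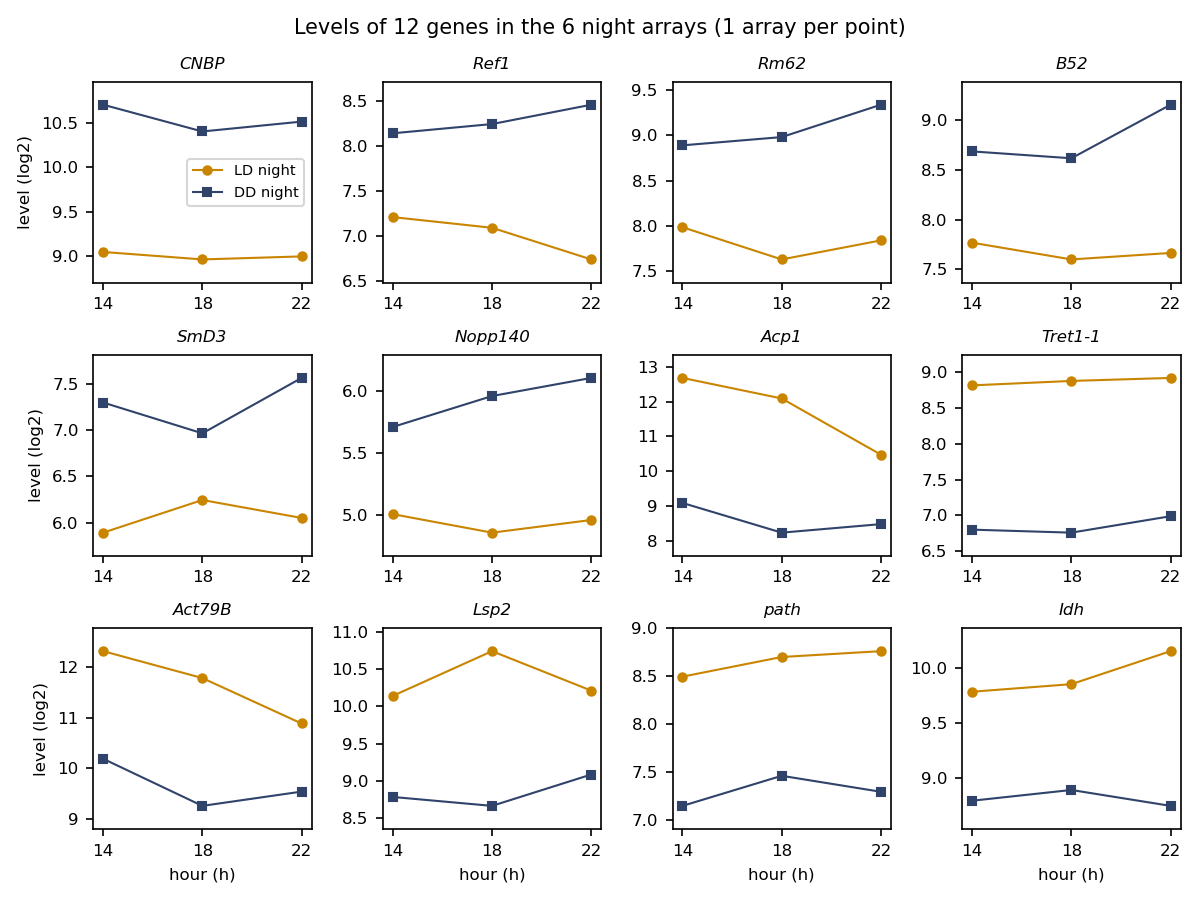
Levels (log2, vertical axes) of 12 genes at hours 14, 18 and 22 (horizontal axes) in the LD night and the DD night, with 1 array per point and lines joining the arrays of a night. CNBP lies between 8.96 and 9.05 in LD and between 10.40 and 10.70 in DD, whereas Acp1 goes from 12.68 to 10.48 through the LD night.

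The largest called decreases were those of Acp1, CG7214 and CG8736. Acp1, an adult cuticle protein gene, had 12.68, 12.09 and 10.48 at LD hours 14, 18 and 22 and 9.09, 8.24 and 8.48 in DD. The groups did not overlap, and the DD level was lower by 8.85-fold (−3.15 ± 0.45 log2, adjusted p = 0.0228). CG7214 had 11.55, 10.83 and 8.84 in LD and 8.31, 7.31 and 7.91 in DD (−2.56 ± 0.56, adjusted p = 0.0447). CG8736 had 11.03, 9.26 and 7.83 in LD and 6.93, 6.75 and 6.68 in DD (−2.59 ± 0.58, adjusted p = 0.0468). In all 3 the LD level was highest at hour 14 and lowest at hour 22, and the gap between the nights was smallest at hour 22. These genes differed as much in the day, where DD minus LD was −4.31 for Acp1, −4.25 for CG7214 and −3.65 for CG8736. The night difference minus the day difference did not pass for any of them (adjusted p from 0.281 to 0.543).

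Acp1 was the one call among 99 measured cuticle protein genes, whose median was −0.02. This share is near the 1.98% called among all genes. Vajk3 of that list had 9.03, 7.63 and 6.43 in LD and 5.40, 5.34 and 5.75 in DD, a difference of −2.20 ± 0.53 with an adjusted p of 0.0571. Leaving out LD hour 14, LD hour 18 or DD hour 22 ended the calls of Acp1, CG7214 and CG8736 (adjusted p from 0.0675 to 0.158), DD hour 18 those of CG7214 and CG8736, and DD hour 14 that of CG8736. All 3 were called without LD hour 22, and with the hour as a block in 12 arrays Acp1 alone was.

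Actin genes of muscle were lower in the DD night. Act79B, expressed in adult muscles of the legs and other tubular muscle, had 12.32, 11.79 and 10.89 in LD and 10.19, 9.26 and 9.54 in DD, a difference of −2.01 ± 0.46 (adjusted p = 0.0481). Act87E had 12.07, 11.39 and 10.99 in LD and 10.003, 9.805 and 9.937 in DD (−1.57 ± 0.35, adjusted p = 0.0468). Neither overlapped between the nights, and in LD both were highest at hour 14. The probe sets of Act79B and Act87E are of a type that several genes of a family can share, so signal from related actins cannot be told apart. Act88F, the actin of flight muscle, had 7.93, 6.88 and 5.94 in LD and 5.32, 5.38 and 5.57 in DD, a difference of −1.49 ± 0.42 that was not called (adjusted p = 0.0915).

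Of 27 measured sarcomere genes, a list that includes these actins, 0 rose and 2 fell, against 0.647% and 1.33% of all genes, 22 had negative differences and the median was −0.43. The mean level over the list was 8.11, 7.77 and 7.54 at the LD hours and 7.18, 7.21 and 7.34 at the DD hours, so it was highest at LD hour 14 and below the LD levels on all 3 DD arrays. The thin filament gene up, a troponin T, differed by −1.84 and Tm2, a tropomyosin, by −1.56, neither called (adjusted p = 0.061 and 0.0635). A dimmer probe set of up differed by −0.12. By hour the list's median difference was −0.74 at hour 14, −0.37 at hour 18 and −0.17 at hour 22, and in the day it was −0.05. How much muscle was carried into each pool by the sieving was not tested. Both actin calls ended without LD hour 14, LD hour 18, LD hour 22, DD hour 18 or DD hour 22 (adjusted p from 0.0732 to 0.168), and with the hour as a block in 12 arrays (0.0567 and 0.0601). Without DD hour 14 that of Act87E ended (0.0586).

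The other genes named for large decreases included 2 transporters, a storage protein and several enzymes. Tret1-1, a transporter of the blood sugar trehalose, had 8.82, 8.88 and 8.92 in LD and 6.80, 6.76 and 6.99 in DD. The levels within each night were close together and the nights far apart, with a difference of −2.02 ± 0.26, or 4.07-fold lower (adjusted p = 0.0188). A dimmer probe set of the gene fell by 1.60 log2 (adjusted p = 0.0247). Lsp2, a hexamerin that serves as an amino acid store, had 10.14, 10.74 and 10.21 in LD and 8.78, 8.66 and 9.08 in DD (−1.52 ± 0.23, adjusted p = 0.0241). It was the one call among 6 storage and yolk proteins and 14 fat body genes, where 1.33% of all genes were called lower and 0.647% higher. A single call is too few to be read as a result about these lists. The amino acid transporter gene pathetic (path) had 8.50, 8.70 and 8.76 in LD and 7.15, 7.46 and 7.29 in DD (−1.35 ± 0.25, adjusted p = 0.0303).

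Enzyme genes fell beside them. The P450 gene Cyp6g1, known for insecticide resistance, had 7.58, 8.19 and 8.01 in LD and 6.30, 6.53 and 6.34 in DD (−1.54 ± 0.28, adjusted p = 0.0288). The spermine synthase gene Sms fell by 1.30 ± 0.25 log2 and CtsK1, a cysteine cathepsin, by 1.26 ± 0.26, each without overlap of the nights. The gene Ttd14, which acts in the light-driven movement of the TRPL channel in photoreceptors, had 7.35, 7.15 and 7.16 in LD and 5.90, 5.87 and 5.72 in DD by its brightest probe set (−1.39 ± 0.25, adjusted p = 0.0274). Its other probe set differed by −0.02. Of the 2 steps that turn proline into glutamate, the first rose and the next fell. The proline dehydrogenase gene slgA had 7.35, 7.54 and 7.27 in LD and 8.09, 8.69 and 8.38 in DD (1.00 ± 0.17, adjusted p = 0.0247), with 0.06 by its other probe set, and P5CDh1 had 8.40, 7.98 and 7.67 in LD and 6.07, 6.68 and 6.59 in DD (−1.57 ± 0.35, adjusted p = 0.0452). The genes pkm (−1.47 ± 0.28) and CG4364 (−1.45 ± 0.25) were also among the largest decreases.

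Of Tret1-1, Lsp2, path, P5CDh1, Cyp6g1, Sms, CtsK1, Ttd14, CG4364 and pkm, 0 were called without LD hour 14, LD hour 18 or DD hour 22 (adjusted p from 0.0675 to 0.148), 1 without LD hour 22, 3 without DD hour 18 and 8 without DD hour 14. With the 5′ signal as a covariate their differences were between 0.46 and 1.03 times those given.

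In the citrate cycle, 3 of 19 measured genes fell and 0 rose, against 1.33% and 0.647% of all genes, with a list median of −0.30. Idh, the NADP-dependent isocitrate dehydrogenase, had 9.78, 9.85 and 10.15 in LD and 8.79, 8.89 and 8.74 in DD (−1.12 ± 0.19, adjusted p = 0.0254). ScsbetaA, a subunit of succinyl-CoA synthetase, differed by −0.95 ± 0.18, and Idh3b, of the NAD-dependent isocitrate dehydrogenase, by −0.90 ± 0.20. Idh3g of the same enzyme differed by −1.21 ± 0.29 with an adjusted p of 0.0556. Among 40 genes of carbohydrate metabolism 4 fell and 0 rose, around a median of −0.05. Besides Tret1-1 these were Pgm1, which links glycogen to glycolysis (8.98, 8.62 and 8.41 in LD, 7.47, 7.79 and 7.75 in DD, −1.0 ± 0.20), the maltase Mal-B2 (−0.77 ± 0.14) and the gluconeogenic gene Pepck2 (−0.73 ± 0.15). In the day the medians were 0.11 for the citrate cycle and 0.03 for carbohydrate genes. Without LD hour 14, LD hour 18, LD hour 22 or DD hour 22 none of the 6 calls besides that of Tret1-1 held (adjusted p from 0.0731 to 0.163), and 2 held without DD hour 18 and 4 without DD hour 14. With the hour as a block in 12 arrays 0 of the 19 citrate cycle genes were called, and Mal-B2 was the one of the 6 that held. Of all 10826 genes 24 were called higher and 82 lower in that fit. With the 5′ signal as a covariate the citrate cycle median was −0.06, and without DD hours 18 and 22 it was −0.12.

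De novo purine synthesis, a group put together after the values were seen, had 5 of 10 measured genes called lower and 0 higher, with a median of −0.53. Of all genes 1.33% were called lower and 0.647% higher. Since the group was formed with the values known, its counts are descriptions and no test of the pathway. Prps, which makes the activated ribose for the pathway, had 7.87, 7.90 and 8.10 in LD and 6.91, 7.01 and 7.0 in DD (−0.98 ± 0.17, adjusted p = 0.0247). The other 4 were Prat2 (−0.65 ± 0.12), Paics (−0.64 ± 0.13), Adsl (−0.55 ± 0.09) and bur (−0.50 ± 0.11). These act at the first committed step, in the middle of the pathway and, for bur, at the last step to GMP. Without LD hour 14, LD hour 18, LD hour 22 or DD hour 22 none of the 5 calls held (adjusted p from 0.0731 to 0.137), 1 held without DD hour 18 and 3 without DD hour 14, and with the hour as a block in 12 arrays those of Prps, Prat2 and Adsl held. The median was −0.38 with the 5′ signal as a covariate.

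Among 49 measured translation factors 4 fell and 0 rose, against 1.33% and 0.647% of all genes. The 4 were subunits of eIF3, a complex that acts at the small ribosomal subunit in starting translation. eIF3h had 10.04, 9.82 and 10.04 in LD and 8.93, 9.31 and 9.00 in DD (−0.89 ± 0.17, adjusted p = 0.0306), and a dimmer probe set of it differed by 0.62 in the opposite direction without being called. eIF3b (−0.86 ± 0.17), eIF3e (−0.81 ± 0.17) and eIF3m (−0.67 ± 0.13) fell as well, 4 of 16 eIF3 genes in all, whose median was −0.06. The list of translation factors had the same median. Without LD hour 14, LD hour 18, LD hour 22 or DD hour 22 none of the 4 calls held (adjusted p from 0.0731 to 0.136), 1 held without DD hour 18 and 2 without DD hour 14, and with the hour as a block in 12 arrays that of eIF3h alone held.

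The vacuolar proton pump, which acidifies compartments of the cell, had 3 of 30 measured subunit genes lower and 0 higher, against 1.33% and 0.647% of all genes, around a median of −0.09, in a group also put together after the values were seen. Vha16-1, its membrane ring, had 10.14, 10.02 and 9.91 in LD and 9.09, 9.17 and 9.16 in DD (−0.88 ± 0.12, adjusted p = 0.0188). A much dimmer probe set of that gene rose by 0.68 (adjusted p = 0.0468), so the probe sets of Vha16-1 were called in opposite directions. VhaSFD differed by −1.16 ± 0.20, with −1.10 by its other probe set (adjusted p = 0.0624), and VhaAC39-1 by −0.82 ± 0.17. In mitochondria, mRpL45 (−0.51 ± 0.10) and bonsai (−0.53 ± 0.11) fell among 66 mitochondrial ribosomal proteins, and ND-51 of respiratory complex I fell (−0.90 ± 0.20) while ATPsynB rose among 70 genes of oxidative phosphorylation, with list medians of 0.04 and 0.06. These shares of mitochondrial genes are near the 1.98% called among all genes. Without LD hour 14, LD hour 18 or DD hour 22 none of these calls held (adjusted p from 0.0731 to 0.167). Without LD hour 22 that of Vha16-1 alone held (0.0411). Without DD hour 18 those of Vha16-1 and mRpL45 held, and without DD hour 14 those of Vha16-1, VhaSFD, mRpL45 and ATPsynB. With the hour as a block in 12 arrays those of Vha16-1 and VhaSFD held.

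**Figure D4:**
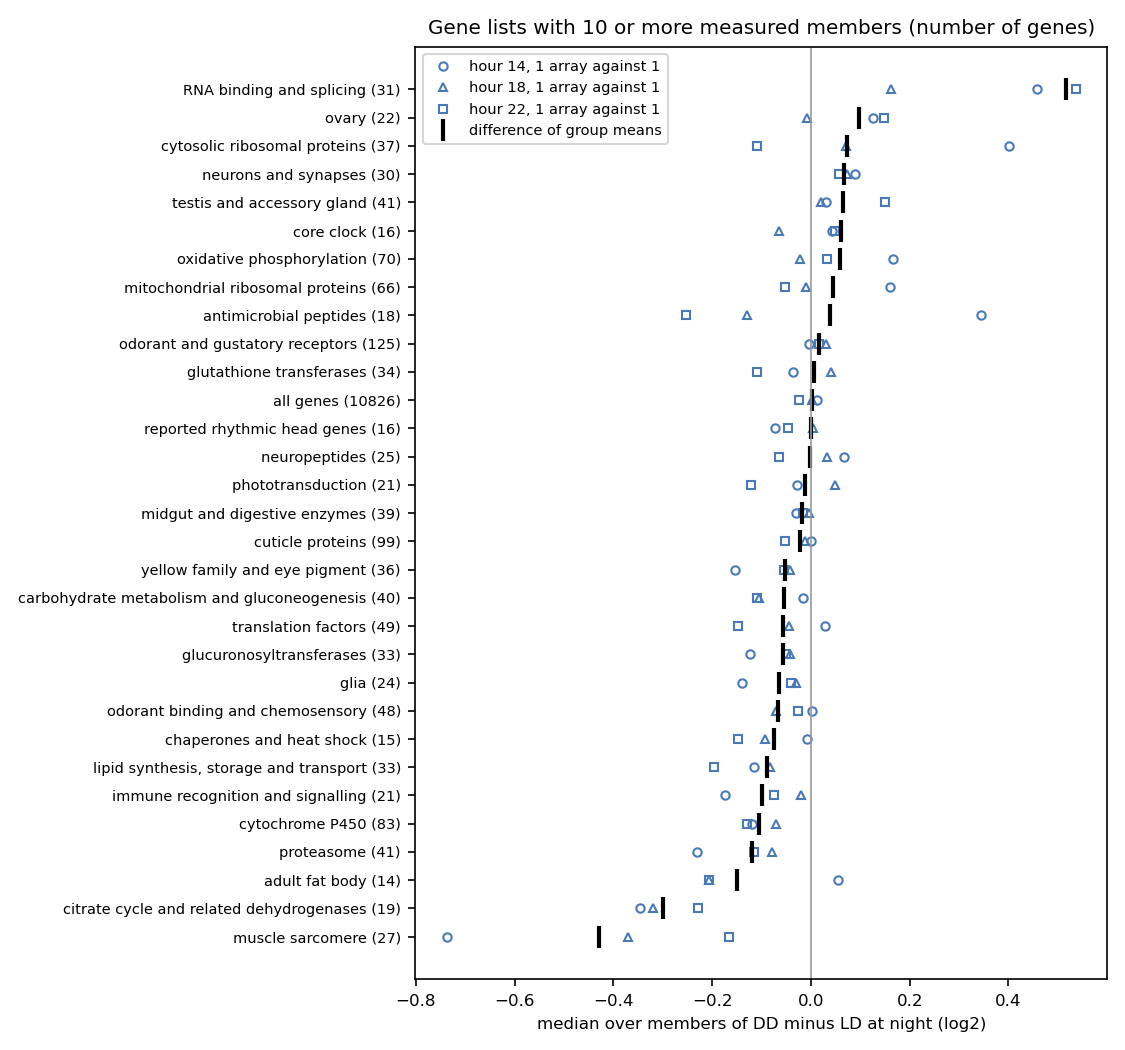
Median over the members of each gene list of DD minus LD at night (log2, horizontal axis), for the difference of group means (bars) and for each hour (points, 1 array against 1). Lists with 10 or more measured genes are shown, without the groups put together after the values were seen, and with the number of genes in brackets. The lists shown were chosen with earlier results of these data known. Of those shown, RNA binding and splicing genes lie highest (median 0.52) and sarcomere genes lowest (−0.43).

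Of 16 measured core clock genes 0 rose and 1 fell between the nights, against 0.647% and 1.33% of all genes, and the median was 0.06 log2. The F-box protein gene slmb, which marks phosphorylated Per for breakdown, had 5.29, 5.11 and 4.98 in LD and 4.44, 4.25 and 4.27 in DD, a difference of −0.81 ± 0.12 without overlap (adjusted p = 0.0241). Its call ended without LD hour 14 or LD hour 18 (0.0731 for both) and DD hour 22 (0.107), and held without each of the other 3.

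The gene tim had 7.80, 7.62 and 6.39 in LD and 7.25, 6.58 and 5.65 in DD. It was lowest at hour 22 of both nights and was lower in DD at each hour. Across the groups its levels overlapped and the difference of −0.78 ± 0.48 was not called (adjusted p = 0.438). With the hour as a block, which compares the nights hour by hour, it was called, at an adjusted p of 0.0484 in 12 arrays and 0.025 in the 6 night arrays. The value for tim moved with the arrays used, to −0.02 without DD hours 18 and 22 and to 0.07 with the 5′ signal as a covariate. Left out singly, LD hour 22 gave −1.22, DD hour 22 gave −0.36 and LD hour 14 gave −0.52.

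The gene vri had 8.16, 7.70 and 6.67 in LD and 8.37, 7.45 and 6.96 in DD, a difference of 0.08 ± 0.47. The negative regulator per differed by 0.08 ± 0.17, the photoreceptor protein gene cry by −0.01 ± 0.19, the activator genes Clk and cyc by 0.25 ± 0.30 and 0.06 ± 0.10, and the repressor gene cwo by −0.01 ± 0.09, with 0.38 ± 0.18 by a dimmer probe set. None of these passed, and their groups overlapped. The arrays of a night are of different hours, so a change with the hour widens both the SE and the overlap. With the hour as a block 0 of the 16 clock genes were called higher and 2 lower, slmb and tim, in 12 arrays and in the 6 night arrays. Of all 10826 genes 24 were called higher and 82 lower in 12 arrays, and 132 and 317 in the 6 night arrays. Pdp1 (0.06), the neuropeptide gene Pdf (0.17), its receptor Pdfr (−0.08), jet (−0.14) and the phosphatase subunit gene tws (0.10) also overlapped between the nights, although a dimmer probe set of tws differed by −0.22 with all DD arrays below all LD arrays and was not called. The kinase genes dco and CkIalpha and the phosphatase subunit gene wdb had non-overlapping nights and were not called. Of the 16 clock genes 2 had all DD night arrays above all LD night arrays and 2 had them below. Over all genes these shares were 10% and 13.1%, so this is near the background. The kinase gene dco had 7.11, 6.96 and 6.87 in LD and 7.32, 7.55 and 7.67 in DD (0.53 ± 0.14, adjusted p = 0.0784), CkIalpha differed by −0.47 ± 0.14 (0.112) and the phosphatase subunit gene wdb by 0.36 ± 0.09 (0.0556).

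Among 30 measured genes of neurons and synapses 1 rose and 2 fell, around a median of 0.07, against 0.647% and 1.33% of all genes. In this list and the others of this paragraph the calls were at most 2 genes in a direction. Such counts are too small to be read as a result about a list. The neuronal RNA-binding gene elav had 4.33, 4.16 and 4.55 in LD and 4.89, 5.24 and 5.69 in DD (0.93 ± 0.19, adjusted p = 0.0390). Gad1, which makes the transmitter GABA, had 8.13, 7.54 and 7.22 in LD and 7.13, 6.24 and 6.31 in DD (−1.07 ± 0.25, adjusted p = 0.0485), and the vesicle gene Rab3 differed by −0.69 ± 0.14. Of 24 glial genes drpr, the receptor by which glia engulf debris, rose (0.52 ± 0.12) and Tret1-1 fell, with a median of −0.06. A dimmer probe set of drpr differed by 0.23 and was not called. The tyrosine hydroxylase gene ple, which starts dopamine and cuticle pigment synthesis, had 8.54, 7.91 and 7.95 in LD and 7.34, 7.03 and 7.32 in DD (−0.90 ± 0.19, adjusted p = 0.0379). With VhaAC39-1, described above, it was 1 of 2 calls among 36 genes of the yellow family and of eye pigment. The co-chaperone gene DnaJ-1 fell by 0.97 ± 0.18 log2, the one call among 15 chaperone genes. Mean levels per array over the list of neuronal genes lay between 5.80 and 5.87 in LD and 5.81 and 5.90 in DD, and over the glial list between 6.30 and 6.46 in LD and 6.23 and 6.34 in DD. The calls of elav, Gad1, Rab3, drpr, ple and DnaJ-1 all ended without any 1 of LD hour 14, LD hour 18, LD hour 22, DD hour 18 and DD hour 22 (adjusted p from 0.053 to 0.181), and those of Rab3 and drpr without DD hour 14. With the hour as a block in 12 arrays those of drpr and ple ended.

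Of 21 measured phototransduction genes 0 rose and 0 fell in limma, where 1.98% of all genes were called, so a list of this size with no call is near the background. An unadjusted p under 0.05 was reached by 7 of them, against 17.2% of all genes, and the median was −0.01. The scaffold gene inaD differed by −0.67 (adjusted p = 0.0611), the corneal protein gene retinin by 0.63 (0.0665) and the arrestin gene Arr1 by −1.10 (0.104). Under the block 1 of the 21 was called higher in 12 arrays, and 2 higher and 3 lower in the 6 night arrays. Of all 10826 genes 24 were called higher and 82 lower in that fit of 12 arrays, and 132 and 317 in that of the 6. Counts this small are not read as a result about the list.

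Antimicrobial peptide genes also had 0 calls among 18 measured, 2 with an unadjusted p under 0.05, and 10 of the 18 lay above 0, around a median of 0.04. Of all genes 1.98% were called and 17.2% had an unadjusted p under 0.05 in limma. A list of this size with 0 calls, here and for the immune genes below, is near that background. DptB, a diptericin, had 8.35, 9.79 and 9.70 in LD and 7.55, 7.45 and 7.55 in DD, a difference of −1.76 ± 0.41 at an adjusted p of 0.0501, and −1.85 in the day. Mtk, the metchnikowin gene, had 9.27, 11.34 and 11.06 in LD and 8.99, 9.14 and 8.71 in DD (−1.61 ± 0.60, adjusted p = 0.186). The bomanin gene BomS5 had 9.24, 10.96 and 10.78 in LD and 10.86, 11.56 and 10.91 in DD, a difference of 0.78 ± 0.47 in the other direction (adjusted p = 0.423). In DptB and Mtk, the LD arrays of hours 18 and 22 were high while that of hour 14 was nearer to the DD arrays. Of 21 genes of immune recognition and signalling 0 passed and 6 had an unadjusted p under 0.05, with Tep4, a complement-like protein, at −0.88 ± 0.20 (adjusted p = 0.0501) and imd, an adaptor of immune signalling, at 0.96 ± 0.25 by its brightest probe set (0.0742) and 0.03 by the other.

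Among the detoxification genes, Cyp6g1 and Cyp9h1 (−0.83 ± 0.16) fell of 83 P450 genes, Ugt301D1 (−0.93 ± 0.20) of 33 glucuronosyltransferases, and 0 of 34 glutathione transferases passed, 3 of which had an unadjusted p under 0.05. These shares are near the 1.98% called among all genes. Acsl, which activates fatty acids, fell (−0.88 ± 0.20) among 33 lipid genes. The medians of these 4 lists were −0.11, −0.06, 0.01 and −0.09. Calls of Cyp9h1, Ugt301D1 and Acsl ended without LD hour 14, LD hour 18, LD hour 22, DD hour 18 or DD hour 22 (adjusted p from 0.0505 to 0.145), and those of Ugt301D1 and Acsl without DD hour 14, and all 3 ended with the hour as a block in 12 arrays (0.0601 to 0.0739).

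Several lists held no call, which at a background of 1.98% of genes called, and 17.2% with an unadjusted p under 0.05, reads as no result about them. In limma 0 members passed among 41 proteasome genes (10 with an unadjusted p under 0.05), 39 of midgut (4), 22 of ovary (3), 41 of testis and accessory gland (4), 7 enriched in females (1), 2 enriched in males (1), 9 nicotinic receptors (0), 25 neuropeptides (4), 48 odorant binding (5), 125 chemosensory receptors (5) and 16 genes reported as rhythmic in heads (2). The mean level over the ovary list lay between 5.53 and 5.66 in LD and between 5.69 and 5.79 in DD, and that over the testis and accessory gland list between 4.45 and 4.52 and between 4.47 and 4.69. Those of the midgut list lay between 5.78 and 5.83 in both nights. The female list, which holds the yolk proteins, lay between 9.73 and 10.12 in LD and between 9.77 and 9.90 in DD.

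Hour by hour, with 1 array against 1 and so no replicate check, 96 probe sets were over 2-fold higher and 176 over 2-fold lower in DD at hour 14. At hour 18 there were 39 and 82, and at hour 22 there were 97 and 93. Of the brighter genes with the largest differences at each hour, RpS5b, a ribosomal protein gene paralog, was higher at hours 14 and 22, with 7.78, 7.80 and 7.34 in LD and 9.99, 8.54 and 9.18 in DD (1.60 ± 0.46, adjusted p = 0.0965). The thioredoxin gene deadhead (dhd) had 3.67, 6.0 and 3.63 in LD and 7.21, 5.12 and 5.72 in DD, so it was higher in DD at hours 14 and 22 and lower at hour 18. At hour 18 the genes with the largest increases were CNBP, CG14989 and the sodium-calcium exchanger gene Nckx30C, and those with the largest decreases were Acp1, CG7214 and Act79B. At hour 22 the decreases were those of Mtk, the elongation factor gene eEF1alpha2 (8.93 in LD and 6.46 in DD) and Arc1, which forms capsids that carry RNA at synapses (8.71 and 6.55). At hour 14 the decreases were those of Acp1, CG8736 and Vajk3. The remaining increases were those of CG34227 at hour 14 (9.18 in LD and 11.20 in DD) and of CG4440 at hour 22 (6.19 and 7.97).

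The night difference was then set against the day difference, to see which genes differed between the regimes to another extent at night than in the day. In the day 5 probe sets were called (0.0358%), and 4 genes (0.0369%). The night difference minus the day difference passed in 299 probe sets (2.14%), with 110 above 0 (0.788%) and 189 below (1.35%), and in 238 genes (2.2%), 75 above (0.693%) and 163 below (1.51%). In the day, 7 of the 70 genes called higher at night and 25 of the 144 called lower had a difference of the same sign as at night, and the median day differences were −0.15 and 0.24. Of all 10826 genes 4501 had the same sign. Without the LD day array of hour 2, which had the low mean 5′ signal, 30 of the 70, 42 of the 144 and 5203 of all genes did. The medians of the genes called higher and lower were then −0.04 and 0.12.

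**Figure D5:**
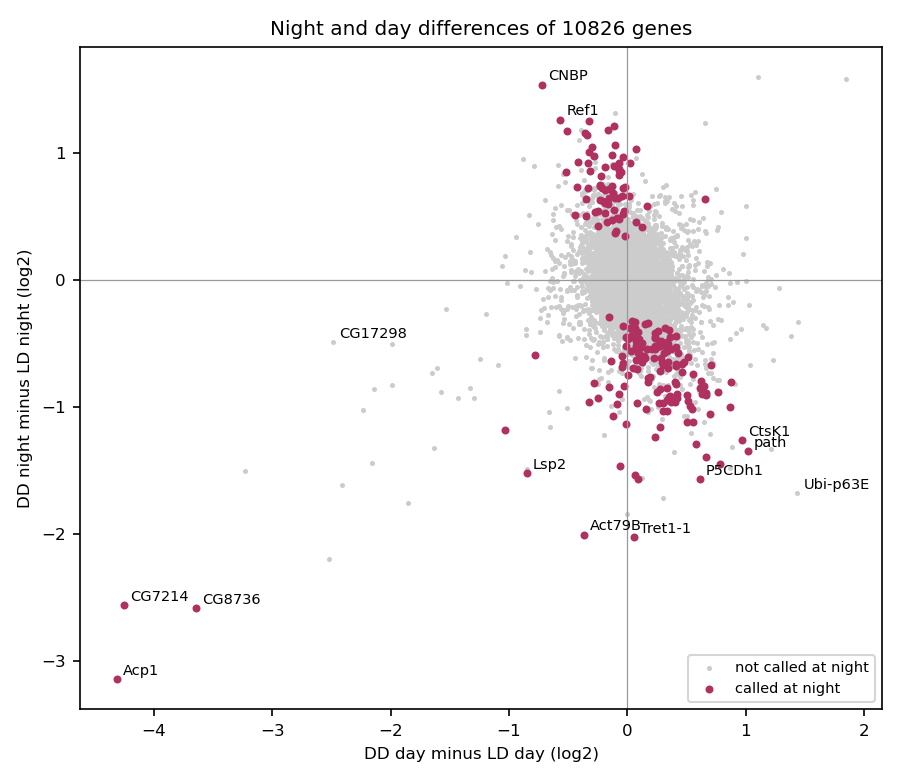
DD minus LD in the day (log2, horizontal axis) and at night (log2, vertical axis) for 10826 genes, 3 arrays in each group. Genes called at night are coloured. Acp1, CG7214 and CG8736 lie far below 0 on both axes, whereas path, CtsK1 and P5CDh1 are above 0 in the day and below 0 at night.

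Most genes named by the size of this difference had values of opposite sign in the day and at night. Of the day differences given here for them, that of CG17298 alone passed (adjusted p = 0.00239, and from 0.245 to 0.605 for the others). For path the night difference was −1.35 and the day difference 1.02 (−2.37 ± 0.36 between them, adjusted p = 0.0210). For CtsK1 they were −1.26 and 0.97, for P5CDh1 −1.57 and 0.61, and for CG4364 −1.45 and 0.78. The polyubiquitin gene Ubi-p63E had 11.52, 11.28 and 11.09 in LD night and 9.23, 9.99 and 9.63 in DD night. Its night difference of −1.68 was not called (adjusted p = 0.102), its day difference was 1.43 and the difference between them was −3.11 ± 0.70 (adjusted p = 0.0464). Above 0 were CNBP (1.54 at night, −0.72 in the day, 2.26 ± 0.36, adjusted p = 0.0217), Ref1 (1.83), CG14989 (1.83) and the poly(A)-binding protein gene pAbp (1.69), whose night difference was 0.90 (adjusted p = 0.0660). A dimmer probe set of pAbp had a night difference of 0.23. CG17298 (2.0) had a night difference of −0.49 and a larger day difference of −2.49. 

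The LD day group holds the array of hour 2, which deviated in the way described above. Without it 41 probe sets were above 0 and 116 below, and of the genes just named the calls of CG14989 and Ubi-p63E ended (adjusted p = 0.0682 and 0.0981) while those of CNBP (1.85), Ref1 (1.69), path (−2.10), CtsK1 (−1.91), P5CDh1 (−1.69), CG4364 (−1.88), pAbp (1.42) and CG17298 (1.72) held. The day difference of P5CDh1 was then 0.12, that of CG4364 0.42, that of CNBP −0.31 and that of path 0.75. Leaving out a night array gave between 1 and 122 above 0 and between 11 and 218 below. Without LD hour 14 there were 12 and 17, without LD hour 18 there were 1 and 11, without LD hour 22 there were 4 and 11, and without DD hour 22 there were 7 and 12. With the 5′ signal as a covariate 0 passed in limma, with 958 at an unadjusted p under 0.05.

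Genes called between the nights had longer median spans on the genome than all genes, which was not tested. The median was 3996 bases for the 144 lower genes and 2897.5 for the 70 higher ones, against 2384 for all genes with a span. Calls numbered 13 higher and 9 lower among the 2707 genes with the shortest spans and 22 and 52 among the 2705 with the longest. Over all genes of these sets, called or not, the median difference was 0.03 and −0.00 log2.

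The call of a gene often rested on 1 of its probe sets. Of the called genes 34 had several probe sets, with 42 besides the brightest. Of these 42, 29 had the sign of the brightest and 13 the opposite, 2 were called in the same direction and 2 in the opposite one. Their median difference in the direction of the call was 0.11, against 0.65 for the brightest probe sets of the same genes, which had passed the test and so had to differ. The remaining 180 called genes had 1 probe set each. Where probe sets of a gene disagree, these data do not tell which of them gives the gene's level.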

How the data were processed

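Transcript levels were measured in 12 samples of adult y w fly heads, 1 Affymetrix array each, of which the 6 of the nights were compared. The deposited values are log2 levels per probe set, and the submitters' processing notes name RMA, with no version. The sources used here do not say which arrays were normalized together, and the array medians lie close together, so differences are relative to them. Groups and hours were taken from the sample titles, and 0 columns were left unused. Of 14010 probe sets, 44 are controls and 13966 were tested, of which 12443 have 1 gene symbol in the platform annotation, 327 several and 1196 none. Symbols were updated through RefSeq's gene table for 12394 by gene ID, 4 by symbol and 38 by synonym, and 7 were unmatched and kept theirs. A gene stands by its brightest probe set.

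limma 3.58.1 in R 4.3.3 was fitted to all 12 arrays in 4 groups of 3, which share 1 estimate of the spread (8 residual degrees of freedom). Contrasts were DD minus LD at night, in the day, and night minus day. P-values were adjusted by Benjamini-Hochberg over all probe sets, with a threshold of 0.05. The 5′ minus 3′ signal was tested by exact permutation. The fit was tested on simulated data.

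Named are up to 15 called genes in each direction with the largest night differences, up to 5 for night minus day, all measured clock genes and actins, up to 4 members of each other list with the smallest p, and the 3 brighter genes with the largest difference per hour and direction. Outside this rule and chosen after their values were seen are snRNP-U1-70K, U2af38, Fib, SmD1, Nop56, Rsf1, fl(2)d, Ythdc1, SF1, VhaSFD, Vha16-1, Prps, Adsl, Paics, bur and Prat2. The members and all lists were chosen with earlier results of these data known, and the groups for SR, snRNP, nucleolar, m6A, eIF3, proton pump, purine and proline genes after the values were seen here.

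The hours pair the arrays of the nights: deviations of same-hour arrays from their group means correlated across probe sets with r = 0.289, 0.253 and 0.205. Alternatives were a renewed quantile normalization, median centring, the brighter probe sets only, a trended and robust prior, the 6 night arrays only, the hour as a block, the 5′ signal as a covariate, averaging a gene's probe sets, and leaving out arrays.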

Additional observations from a re-analysis of the deposited data

Results flagged for a closer look

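The difference between the regimes was tested for being another at night than in the day, as night difference minus day difference in the same limma model, and it passed in 299 probe sets. Among the genes named for the size of their night or night minus day difference, it passed with a value above 0 on the log2 scale for CNBP (2.26), CG17298 (2.0), Ref1 (1.83), CG14989 (1.83), pAbp (1.69), CG13551 (1.68), Rm62 (1.57), Sec61beta (1.51), B52 (1.48), Ork1 (1.34), SmD3 (1.33), slgA (1.32), Nopp140 (1.11) and mira (1.01). It passed with a value below 0 for Ubi-p63E (−3.11), path (−2.37), CG4364 (−2.24), CtsK1 (−2.23), P5CDh1 (−2.18), Tret1-1 (−2.08), Ttd14 (−2.06) and Sms (−1.88). Each value rests on 3 arrays in each of 4 groups, and 1 of the LD day arrays, that of hour 2, had a low mean 5′ control signal.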

How the results depend on the processing

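The 291 probe sets called between the nights kept their sign under the alternatives that fit probe sets, of which that with the brighter probe sets tested 216 of them, which for groups that do not overlap is no sign of stability, but the number called did not hold. Against 113 higher and 178 lower probe sets, the hour as a replicate block gave 42 and 108 in 12 arrays, and 206 and 390 in the 6 night arrays. The 6 night arrays without a block gave 289 lower. The 5′ signal as a covariate gave 0 and 0, as did leaving out DD hours 18 and 22 together (1955 with an unadjusted p under 0.05 in limma). Leaving out single night arrays gave 0 to 163 higher and 0 to 345 lower, and leaving out LD hour 2, chosen after the data were seen, gave 249 and 441. Renewed quantile normalization (114 and 152), median centring, the brighter probe sets and another prior stayed within 1.5 times.

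Against 110 probe sets above 0 and 189 below for night minus day, the replicate block gave 23 and 91, the covariate 0 and 0, leaving out DD hours 18 and 22 gave 0 and 1, single night arrays left out gave 1 to 122 and 11 to 218, and without LD hour 2 there were 41 and 116. List medians changed sign for 8 of 44 lists with the covariate, 9 without DD hours 18 and 22, and between 3 and 7 without single night arrays. The cause of these changes was not tested. With 3 arrays in a group, small differences can be missed.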
